A study of Mus musculus with 6 samples.

Results

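Clk1, Clk2, Clk3, Clk4 and Ogt are 5 of the 28660 loci measured in nuclear RNA of HL-1 cells, and they were picked by gene symbol. HL-1 is an immortal mouse cardiomyocyte line of atrial origin. Its nuclei were fractionated, and 3 libraries came from the chromatin pellet and 3 from the soluble nuclear extract, 6 in all. The cells of both groups were untreated and grown alike, in Claycomb medium with serum, L-glutamine and norepinephrine, per the labels' protocols. The line has no primary cell beside it here, so the values describe one cultured line. ERCC spike-ins, synthetic RNAs, were added to each fraction before extraction. The deposited table holds 1 pooled FPKM value per fraction and locus (fragments scaled to transcript length and library size, so a level per length). No replicate values are in it, so no spread between cultures and no p-value can be given, and the depth behind each value is unknown.

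The Clk genes encode dual-specificity kinases of the nucleus that phosphorylate SR proteins, the serine- and arginine-rich factors that help choose splice sites. Ogt encodes O-GlcNAc transferase, which places single N-acetylglucosamine sugars on nuclear and cytosolic proteins, and the enzyme encoded by Mgea5 (also named Oga) takes them off. Transcripts of Clk1, Clk4 and Ogt are known from other mouse and human cells for detained introns, which are spliced slowly and hold a polyadenylated transcript in the nucleus until they are removed. Such a pool of RNA lets a cell release mature message when kinase activity or O-GlcNAc levels change. The table gives 1 value per gene over all its transcripts and does not separate introns from exons, so the label of detained introns could not be checked in these data.

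Clk1, Clk4 and Ogt stood far to the pellet side, Clk2 stood in between and Clk3 lay within 2-fold of the balance of the spike-ins. All 5 had almost the same level in the soluble fraction, between 17.3 and 21.3 FPKM, a range of 1.23-fold. Their pellet levels ran from 8.79 to 55.5 FPKM, a range of 6.31-fold. The spread among the 5 genes therefore lay in the pellet values.

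Clk4 and Ogt are shown with Clk2 by the 250 bases before a RefSeq start, as the genome context of a pair with high pellet levels and of a relative with a lower one. RefSeq promoter windows on GRCm38.p6, the build also called mm10, matched 4 of the 5 genes, all but Clk1. Capitals mark the letters of a GC box (GGGCGG or CCGCCC), a cyclic AMP response element (TGACGTCA) and an E-box (CACGTG), searched on both strands. The windows are chr11:51262864-51263113 on the plus strand for Clk4, chrX:101639801-101640050 on the plus strand for Ogt and chr3:89164545-89164794 on the plus strand for Clk2.
Clk4: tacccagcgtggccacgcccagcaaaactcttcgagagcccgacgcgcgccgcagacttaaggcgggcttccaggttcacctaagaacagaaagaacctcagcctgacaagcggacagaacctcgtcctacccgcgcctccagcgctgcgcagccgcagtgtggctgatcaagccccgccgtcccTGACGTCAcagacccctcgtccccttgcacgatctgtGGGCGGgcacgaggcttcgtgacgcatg
Ogt: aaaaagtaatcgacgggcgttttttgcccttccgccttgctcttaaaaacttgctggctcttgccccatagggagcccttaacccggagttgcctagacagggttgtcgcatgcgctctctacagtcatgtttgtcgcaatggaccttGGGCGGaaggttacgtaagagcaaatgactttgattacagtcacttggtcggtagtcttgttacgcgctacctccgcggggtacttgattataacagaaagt
Clk2: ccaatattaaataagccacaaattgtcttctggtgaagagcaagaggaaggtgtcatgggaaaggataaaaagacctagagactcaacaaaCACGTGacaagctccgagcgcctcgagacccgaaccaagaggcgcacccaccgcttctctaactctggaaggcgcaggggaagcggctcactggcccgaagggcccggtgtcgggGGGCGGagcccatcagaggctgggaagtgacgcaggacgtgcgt
The GC box letters were in all 5 windows of these 4 genes (Ogt has a pair of windows), and in 32.7% of the 32851 windows of the whole RefSeq table. The cyclic AMP response element stood in the Clk4 window alone among them, and in 1.55% of all windows. The E-box stood in the Clk2 window alone among them, and in 6.02% of all windows. TATAAA was in none of the 5 windows, against 12.4% of all, and CCAAT was in the Clk2 window, against 33.8% of all. GC content was 64.4% for Clk4, 49.6% for the Ogt window printed and 57.2% for Clk2, against a median of 52.4% over all windows. In the windows not printed it was 75.2% for Clk3, the gene with the lowest pellet level, and 48.8% for the other Ogt window. These letters describe the windows. The Ogt window printed runs past base 101640011, where the RefSeq span of the gene begins. The Clk4 window lies within the RefSeq span of another gene, BC049762 (chr11:51253645-51263662). The motifs do not overlap each other in the printed windows, and promoter activity was not measured.

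Clk1, the founding member of the mouse family (ENSMUSG00000026034.13), had 46.9 FPKM in the pellet and 19.3 FPKM in the soluble fraction. Clk4, a close relative of Clk1 (ENSMUSG00000020385.12), had 48.6 FPKM in the pellet and 19.8 FPKM in the soluble fraction. Clk2 (ENSMUSG00000068917.8) had 15.2 FPKM in the pellet and 17.3 FPKM in the soluble fraction. Clk1 and Clk4 were thus both higher in the pellet on the FPKM scale itself, while Clk2 was slightly lower there. Clk3 (ENSMUSG00000032316.7) had 8.79 FPKM in the pellet and 21.3 FPKM in the soluble fraction, the lowest pellet value and the highest soluble value of the 5. Ogt (ENSMUSG00000034160.9) had 55.5 FPKM in the pellet and 17.3 FPKM in the soluble fraction, the highest pellet value and the lowest soluble value of the 5. How fragments that map to several of the Clk paralogs were counted is not stated in any source used here.

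**Figure D1:**
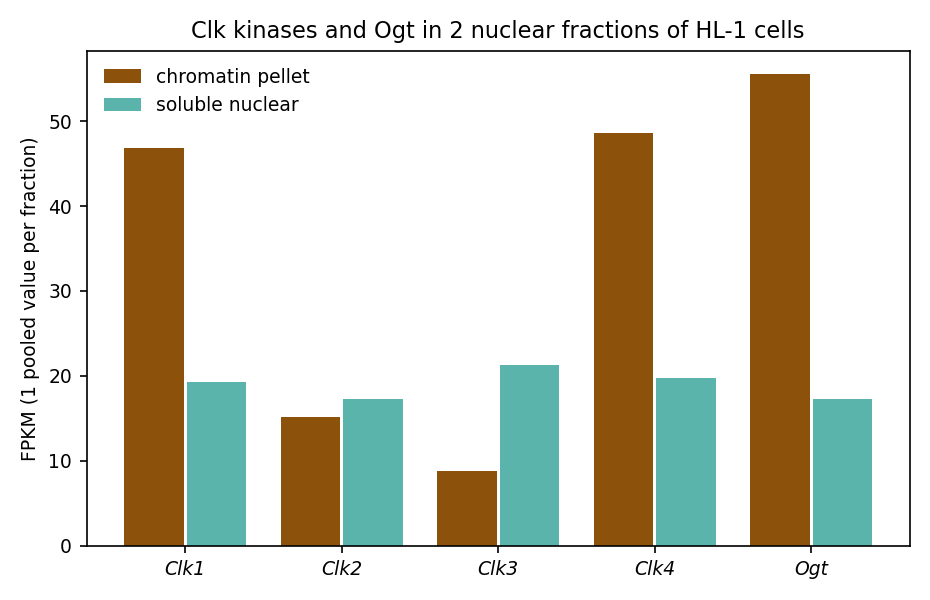
FPKM of the 5 genes in the chromatin pellet (brown) and in the soluble nuclear extract (teal), 1 pooled value per fraction, so no error bars can be drawn. The soluble bars lie between 17.3 and 21.3 FPKM, while the pellet bars reach 46.9 for Clk1, 48.6 for Clk4 and 55.5 for Ogt but only 15.2 for Clk2 and 8.79 for Clk3.

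FPKM sets each fraction to its own total, so a second scale used the spike-ins. On the spike-in scale the pellet FPKM is multiplied by 3.37, the slope through the origin fitted to the 82 spike-ins, before the log2 ratio to the soluble FPKM is taken. This is the scale of the authors' deposited enrichment, and it adds 1.75 to every log2 ratio of FPKM. Reading it as RNA per fraction assumes that both fractions received equal spike-in amounts, which are not stated in any source used here. The 47 spike-ins that averaged 0.5 FPKM or more scattered about the common factor with an SD of 0.12 (log2), from -0.28 to 0.23. The 10 spike-ins with means between 10 and 100 FPKM, the range of the 5 genes, had an SD of 0.0929, and the farthest pair of them differed by 0.35. This scatter covers library preparation and quantification of the spike-ins, not fractionation or differences between cultures. It also leaves out how fragments were divided among transcripts, Clk paralogs or genes of one locus.

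Ogt had the highest log2 ratio of pellet over soluble on the spike-in scale, 3.44, equal to 10.8-fold. Clk4 had 3.05, equal to 8.30-fold, and Clk1 had 3.03, equal to 8.19-fold. Clk2 had 1.57, equal to 2.97-fold. Clk3 had 0.48, equal to 1.39-fold, and lay within 2-fold of balance. If the spike-in amounts were equal, the pellet held 91.6% of the Ogt signal, 89.2% of Clk4, 89.1% of Clk1, 74.8% of Clk2 and 58.2% of Clk3.

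At a threshold of 2-fold, with no test behind it, 4 of the 5 genes were pellet-enriched by the spike-ins and 0 were lower. Over all 13917 loci that averaged 0.5 FPKM or more (the tested loci), 31.9% were at least 2-fold higher and 10.5% at least 2-fold lower. Among the 11397 protein-coding loci these shares were 24% and 10.6%. The median log2 ratio of the 5 genes was 3.03, against 0.41 for all tested loci and 0.26 for protein-coding loci. On the FPKM scale 3 of the 5 stayed at least 2-fold higher: Ogt at 1.68, Clk4 at 1.30 and Clk1 at 1.28. Only 9.66% of all tested loci and 2.25% of protein-coding loci were that high on the FPKM scale. Clk2 turned to -0.19 there and Clk3 to -1.28, at least 2-fold lower, as were 61.2% of all tested loci and 68.2% of protein-coding loci. The side on which Clk2 and Clk3 fall thus depends on the scale, and that of Clk1, Clk4 and Ogt is the same on both.

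**Figure D2:**
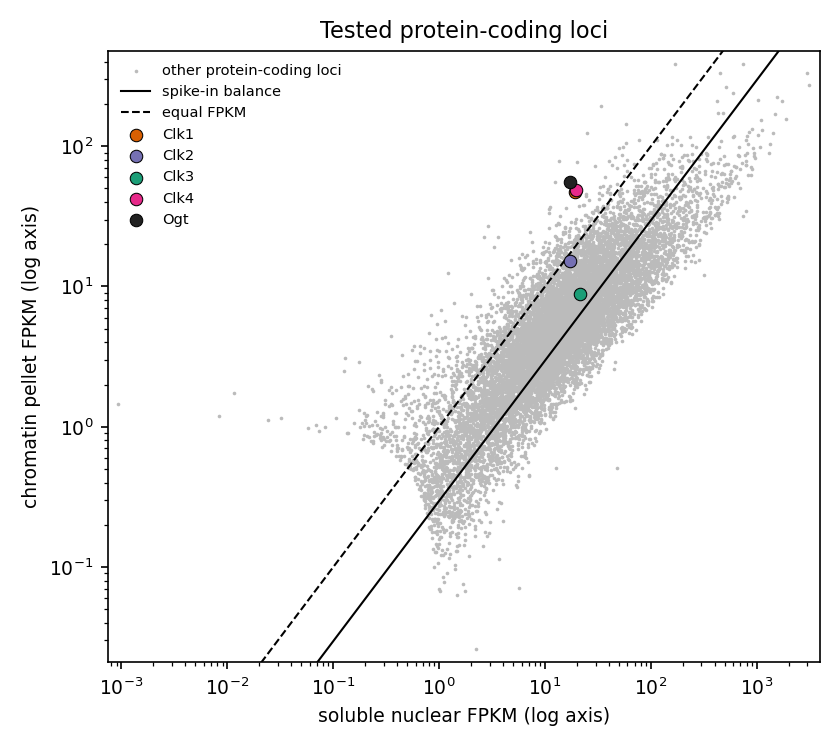
Pellet FPKM (y, log axis) against soluble FPKM (x, log axis) of the 11397 tested protein-coding loci in grey, with the 5 genes in colour. The solid line marks balance on the spike-in scale and the dashed line equal FPKM. Ogt, Clk4 and Clk1 lie above both lines at 55.5, 48.6 and 46.9 pellet FPKM, Clk2 lies between the lines and Clk3 lies just above the solid one.

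Ranked by log2 ratio among the 11397 protein-coding loci, which is the same order on both scales, Ogt came at place 123, Clk4 at 185 and Clk1 at 191. Thus 1.07% of protein-coding loci had a higher ratio than Ogt, 1.61% than Clk4 and 1.67% than Clk1. Clk2 came at place 1299, with 11.4% of loci above it. Clk3 came at place 4757, with 41.7% above it. By soluble level none of the 5 was unusual, since between 34.7% and 41.1% of protein-coding loci had a higher soluble FPKM than any given one of them.

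The differences among the 5 genes do not depend on the scale, because a common factor cancels. Clk4 and Clk1 differed by 0.02 (log2), less than the SD of the spike-ins. Ogt was above Clk4 by 0.39 and above Clk1 by 0.40, a little more than the 0.35 between the farthest spike-ins of similar level. Clk2 lay below Clk4 by a gap of 1.48 and below Clk1 by a gap of 1.47, and it lay above Clk3 by 1.09. The widest gap was 2.96, between Ogt and Clk3, a 7.79-fold difference in ratio. Of the 10 pairs, 9 differed by more than the farthest spike-ins of similar level, with Clk4 and Clk1 the exception. Whether any of these gaps exceeds the spread between cultures cannot be told from pooled values. The spike-ins do not cover errors in dividing fragments among paralogs or genes of one locus.

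The order of pellet levels was Ogt, Clk4, Clk1, Clk2 and Clk3. Neighbours at the top were close, with Ogt 1.14 times Clk4 and Clk4 1.04 times Clk1. Clk1 had 3.08 times the pellet level of Clk2, and Clk2 had 1.73 times that of Clk3. In the soluble fraction the order was Clk3, Clk4, Clk1, Clk2 and Ogt, all within 1.23-fold of each other. Clk3 was at the opposite end of the order in the 2 fractions from Ogt.

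At their shared soluble level, the pellet values of Clk1, Clk4 and Ogt were among the highest in the table. Between 17.3 and 21.3 soluble FPKM, the range the 5 genes span, there were 726 protein-coding loci, the 5 included. Their median pellet level was 6.46 FPKM, with an interquartile range of 4.47 to 9.47. The 4 highest pellet levels among the 726 were those of Ccnl1, Ogt, Clk4 and Clk1. Ccnl1 encodes cyclin L1, a partner of splicing-linked cyclin-dependent kinases, and had 76.9 FPKM in the pellet and 20.2 FPKM in the soluble fraction. Next came Pign, of glycolipid anchor synthesis, at 37.6 FPKM in the pellet and 21.0 FPKM in the soluble fraction. For Clk2, 63 of the 726 loci (8.68%) were at or above its pellet level, and for Clk3 219 of 726 (30.2%). The set of 726 was drawn after the values were seen, so its top places are a description.

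**Figure D3:**
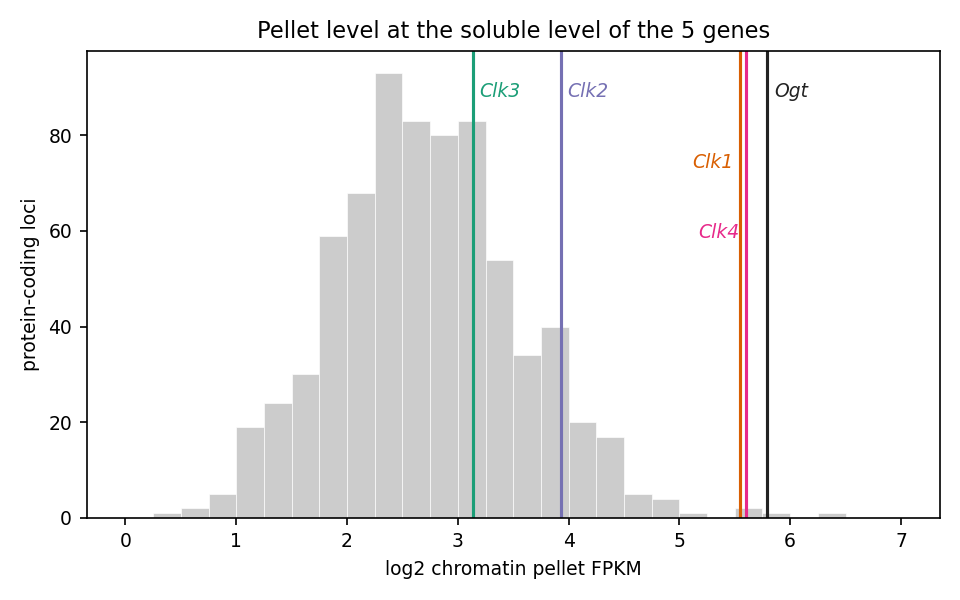
Number of protein-coding loci (y) by log2 pellet FPKM (x) among the 726 loci with a soluble level between 17.3 and 21.3 FPKM, with the 5 genes as coloured lines. Clk3 at 8.79 FPKM lies within the bulk, Clk2 at 15.2 FPKM on its upper slope, and Clk1, Clk4 and Ogt lie beyond nearly all loci.

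Likeness was measured as the distance in log2 pellet FPKM and log2 soluble FPKM over the 2 pooled values, among 11396 other protein-coding loci for each gene. The nearest locus to Clk1 was Clk4, at 0.06, and the second was Ogt, at 0.29. The nearest to Clk4 was Clk1, and the second was Ogt at 0.27. The nearest to Ogt were Clk4 and Clk1. These 3 genes were thus each other's nearest among the protein-coding loci compared. The third places went to Pign for Clk1, at 0.34, to Srrm1, which encodes an SR-related splicing coactivator, for Clk4, at 0.33, and to Paxbp1 for Ogt, at 0.47.

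Clk2 and Clk3 had other companions, at smaller distances. Nearest to Clk2 were Kif20b, a mitotic kinesin gene, at 0.02, Ralgapb, of a Ral GTPase-activating complex, at 0.03, and Crebrf at 0.05. Kif20b had 15.3 FPKM in the pellet and 17.5 FPKM in the soluble fraction. Nearest to Clk3 were Dctn5, which encodes a dynactin subunit, at 0.01, Ttll7, of a tubulin-modifying enzyme, at 0.02, and Smarca2, of a chromatin remodelling ATPase, at 0.03. Dctn5 had 8.86 FPKM in the pellet and 21.2 FPKM in the soluble fraction. With only 2 values per locus, likeness of this kind is common and describes position in the table alone.

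The 5 genes lie on 5 chromosomes, and the order of their spans was not the order of their ratios. RefSeq places Clk1 at chr1:58411988-58424088 (12101 bases), Clk2 at chr3:89164795-89177087 (12293 bases) and Clk3 at chr9:57750621-57766235 (15615 bases). Clk4 lies at chr11:51263114-51281770 (18657 bases) and Ogt at chrX:101640011-101684351 (44341 bases). Clk1 and Clk2 have almost equal spans but log2 ratios of 3.03 and 1.57 on the spike-in scale. Ogt and Clk4, the longest of the 5, had the highest ratios, 3.44 and 3.05. A link between span and ratio was not tested. Of 2187 tested protein-coding loci with a RefSeq span of 10 to 20 kb, 17.7% were higher in the pellet by 2-fold or more, with a median of 0.03. Of 652 with a span of 40 to 50 kb, like Ogt, 27% were higher, with a median of 0.47. By the spike-ins, the scale of these shares, 24% of all tested protein-coding loci were higher, with a median of 0.26. The shares at least 2-fold lower were 10.5% for 10 to 20 kb and 2.45% for 40 to 50 kb. On the FPKM scale the shares at least 2-fold higher were 2.33% and 1.99%, and the shares lower 76% and 62.6%. These span classes were set after the values were seen.

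The tested neighbours of Clk1, Clk2 and Ogt had lower ratios than these genes. Bzw1, a regulator of translation 2835 bases before the Clk1 locus, had 21.2 FPKM in the pellet and 111.5 FPKM in the soluble fraction, a log2 ratio of -0.64. Ppil3, a cyclophilin gene 6927 bases after it, had 4.79 FPKM in the pellet and 24.0 FPKM in the soluble fraction, a ratio of -0.57. Both neighbours of Clk1 thus lay to the soluble side on either scale. Scamp3, of membrane trafficking, 551 bases after Clk2, had a ratio of 0.27, which turns to -1.48 on the FPKM scale. Taf1, which encodes the largest subunit of the general factor TFIID and lies 38270 bases before Ogt, had a ratio of 1.03, which turns to -0.72 on the FPKM scale. The processed pseudogene Gm14845, 7193 bases after Ogt, had -0.84. Arid3b, 12004 bases after the Clk3 locus, had 1.99, above Clk3 itself. Hcn3, an ion channel gene before Clk2, had 0.385 FPKM in the pellet and 0.509 FPKM in the soluble fraction, a ratio of 1.35 near that of Clk2, but its mean was too low to be tested. Cyp1a1 before Clk3, and Gm12569 and Col23a1 around Clk4, were likewise below 0.5 FPKM.

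Clk3 and Clk4 share their table coordinates with other genes, as do 6055 of the 13917 tested loci. Edc3, an mRNA decapping enhancer gene merged with Clk3 into one locus, had 4.63 FPKM in the pellet and 8.45 FPKM in the soluble fraction, a log2 ratio of 0.89, which turns to -0.87 on the FPKM scale. Clk4 shares its locus with BC049762, whose RefSeq span overlaps that of Clk4 by 549 bases. BC049762 was at 0.0726 FPKM in the pellet and 0.0908 FPKM in the soluble fraction, too low to be tested. The third gene of the locus, the miscellaneous RNA Gm25082, had 18.2 FPKM in the pellet and 1.63 FPKM in the soluble fraction, a ratio of 5.23 on the spike-in scale and 3.48 on the FPKM scale. Among 71 tested RNAs of that type 14 had a higher ratio than Gm25082, and their median was 3.60. How fragments were divided among genes of one locus is not stated in any source used here, and its part in the values of Clk3 and Clk4 was not tested. Clk1, Clk2 and Ogt share their coordinates with no other locus.

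Most other genes known for detained introns lay to the pellet side by the spike-ins, but only a minority passed 2-fold on the FPKM scale as Clk1, Clk4 and Ogt did. Of 21 such genes, all tested, 16 were higher in the pellet by 2-fold or more by the spike-ins and 0 lower. The shares that high were 31.9% of all tested loci and 24% of protein-coding loci. The median log2 ratio of the 21 was 2.46, or 0.70 on the FPKM scale. That scale puts 7 above and 4 below the threshold, against 9.66% and 61.2% of all tested loci. Among protein-coding loci these shares were 2.25% and 68.2%. The list was drawn up with earlier results of these data known. The highest were Gabbr1, a GABA receptor gene, at 3.92 with 4.21 FPKM in the pellet and 0.935 FPKM in the soluble fraction, and Ccnl1 at 3.68. The lowest was Snrnp70, of the U1 particle, at -0.37 with 21.6 FPKM in the pellet and 94.4 FPKM in the soluble fraction. Clk1 was matched or exceeded by 4 of the 21 and Ogt by 3. Clk3, at 0.48, lay near the low end of this list.

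The genes of the SR proteins, substrates of the Clk kinases, had lower ratios than Clk1 and Clk4. Of 16 genes for SR and related proteins, 15 were tested, 7 were higher in the pellet by 2-fold or more and 0 were lower. Over all tested loci 31.9% were higher and 10.5% lower, and among protein-coding loci 24% and 10.6%. The median of the 15 was 0.96, against 0.41 for all tested loci. Without the spike-in factor it was -0.79, with 0 higher and 6 lower, against 9.66% and 61.2% of all tested loci. Among protein-coding loci these shares were 2.25% and 68.2%. Srrm1 was highest at 2.64, with 45.4 FPKM in the pellet and 24.6 FPKM in the soluble fraction. Son, which encodes a large nuclear speckle protein, followed at 2.62. Srsf9 at -0.87 and Srsf7 at 0.36 were lowest, and Srsf9 had 12.8 FPKM in the pellet and 79.1 FPKM in the soluble fraction. None of the 15 reached the ratio of Clk1. Clk2, at 1.57, lay above only 11 of the 15, and Clk3, at 0.48, lay below their median.

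The tested kinases related to Clk, including SRPK kinases that also phosphorylate SR proteins, also had lower ratios than Clk1 and Clk4. Of 13 genes 11 were tested, 7 were higher in the pellet by 2-fold or more and 0 were lower. The share of all tested loci that high was 31.9%, and that of protein-coding loci was 24%. The median of 1.04 turns to -0.71 on the FPKM scale, where 1 was higher and 4 lower. The shares there were 9.66% and 61.2% of all tested loci, and 2.25% and 68.2% of protein-coding loci. Clk2, at 1.57, lay above 10 of the 11. Hipk4, a homeodomain-interacting kinase gene, was highest at 2.88, but at only 0.862 FPKM in the pellet and 0.394 FPKM in the soluble fraction. Prpf4b, of a spliceosome-associated kinase, followed at 1.43, with 10.5 FPKM in the pellet and 13.1 FPKM in the soluble fraction. The lowest were Dyrk3 at -0.09 and Hipk3 at 0.39. None of the 11 reached the ratio of Clk1. Dyrk4 had a ratio of 4.25, above Clk1. At 0.115 FPKM in the pellet and 0.0204 FPKM in the soluble fraction it was too low to be tested.

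Ogt had a higher ratio than every other gene listed for O-GlcNAc and hexosamine metabolism. Of 14 such genes, all tested, 1 was at least 2-fold higher in the pellet and 0 were lower. Over all tested loci the shares were 31.9% and 10.5%, and the median was 0.41. Among protein-coding loci the shares were 24% and 10.6%. The median of the 14, 0.50, turns to -1.25 on the FPKM scale, with 11 genes lower and 0 higher. On that scale 61.2% of all tested loci and 68.2% of protein-coding loci were lower, so the count of 11 lies near the background. Mgea5, the gene of the enzyme that removes the sugar Ogt adds, had 15.5 FPKM in the pellet and 35.0 FPKM in the soluble fraction, a log2 ratio of 0.58. Ogt thus exceeded Mgea5 by 2.86 on the log2 scale. Gfpt1, of the first and rate-limiting step of the hexosamine pathway, had 0.40. Pgm3, which makes a precursor of the sugar donor, was the 1 higher gene at 1.46, followed by Slc35a3, a nucleotide sugar transporter, at 0.93. Gnpda2 at -0.32 and Renbp at -0.22 were lowest. Even Pgm3 lay below Ogt by a gap of 1.98.

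**Figure D4:**
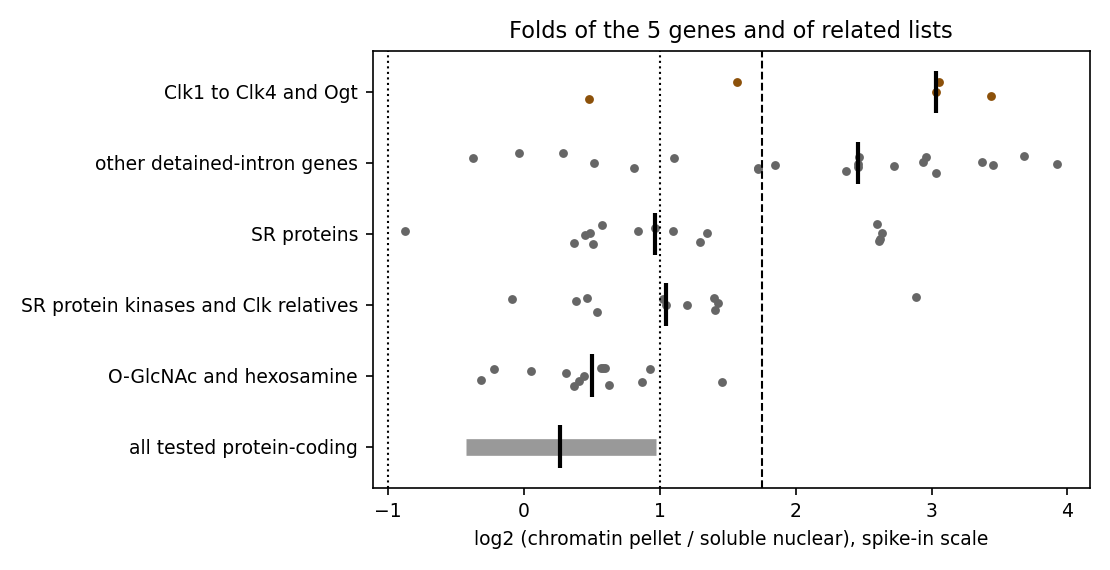
Log2 ratio of pellet over soluble on the spike-in scale (x) for the 5 genes and 4 related lists, each point a tested gene and each black bar a median. The grey band is the interquartile range of all tested protein-coding loci, dotted lines mark 2-fold, and the dashed line marks equal FPKM at 1.75. Medians are 3.03 for the 5 genes, 2.46 for other detained-intron genes, 0.96 for SR proteins, 1.04 for the kinases and 0.50 for the O-GlcNAc list.

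Cardiomyocyte markers were present, though not all at high levels. Of 10 cardiomyocyte markers 9 were found by symbol and all 9 were tested, with summed levels of 594.6 FPKM in the pellet and 3112 FPKM in the soluble fraction. The atrial peptide gene Nppa was the lowest of them by mean level, at 0.208 FPKM in the pellet and 1.63 FPKM in the soluble fraction. Smooth muscle markers, some of which cardiomyocytes in culture also express, summed to 289.7 FPKM in the pellet and 1922 FPKM in the soluble fraction. Fibroblast, endothelial, immune and neuronal markers each summed to at most 2.45 FPKM in the pellet and 7.05 FPKM in the soluble fraction. None of the 28660 loci was listed at 0 in either fraction, so the lack of a 0 is not particular to the markers found.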

How the data were processed

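The authors deposited 1 table with an FPKM value per fraction and locus, per the file headers, so that 3 libraries stand pooled in each value. The submitters' processing notes name the build mm10 and the tools Cufflinks, Cuffdiff, HISAT2, SAMtools and bedtools, with no versions or settings. Beside it stand the authors' rescaled pellet signal, the total signal, the ratio of both fractions and the log10 of the total and the ratio, per the file headers. In tested loci the rescaled signal departs from pellet FPKM times the unrounded factor (3.37285 to 6 digits) by at most 4.75e-07 percent.

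Of 30687 lines, 1945 repeated an identifier and were dropped, leaving 28742 identifiers, 82 of them spike-ins. Ratios were recomputed from FPKM without a pseudocount, and 13917 loci that averaged 0.5 FPKM or more were tested against a threshold of 2-fold. The limma fit planned for replicate values could not be run on pooled ones. Depth is unknown, so no counting interval is given. Starts in the table count from 0, and 1 was added. Python 3.11.15, pandas 2.3.3 and NumPy 2.4.6 were used, and the ratio step was tested on simulated data. Members and lists were chosen with earlier results of these data known. Named are the 5 members, the 3 loci nearest to each in both levels, the 2 highest and 2 lowest of each list, and loci overlapping or next to a member. 1 gene that this rule names is not reported here. Mgea5, Gfpt1, Nppa, Dyrk4 and the use of Ccnl1 and Pign at a matched soluble level fall outside the rule and were chosen with their values known. Alternatives tried were the FPKM scale, another spike-in factor, pseudocounts, other level filters and leaving out loci that share coordinates.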

Additional observations from a re-analysis of the deposited data

How the results depend on the processing

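The log2 ratios of the 5 genes moved by at most 0.09, less than the spike-in SD of 0.12, under a factor from the median spike-in ratio (3.50) and under pseudocounts of 0.1 and 1 FPKM. Their 10 pairwise differences, recomputed under the pseudocounts, moved by at most 0.14. On the FPKM scale the log2 ratios were 1.28 for Clk1, 1.30 for Clk4 and 1.68 for Ogt. Clk2 and Clk3 both changed sign there, to -0.19 and -1.28. The scale's own shift of 1.75 accounts for all of these moves.

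Over the whole table, 4434 loci were at least 2-fold higher and 1467 lower by the spike-ins, against 1344 and 8514 on the FPKM scale and 14261 and 2546 with no filter. On the FPKM scale SR proteins had 0 higher, 6 lower and a median of -0.79. The kinases had 1 higher, 4 lower and a median of -0.71 there. The O-GlcNAc list had 0 higher, 11 lower and -1.25, and the other detained-intron genes 7 higher, 4 lower and 0.70. The medians of the SR proteins, the kinases and the O-GlcNAc list thus changed sign, and that of the other detained-intron genes did not. Leaving out loci that share coordinates gave an SR protein median of 1.10, 4 of 7 kinases higher, 0 of 9 O-GlcNAc genes higher, and 10 of 14 other detained-intron genes higher with a median of 2.15. The remaining counts and medians of these 4 lists stayed within 1.5 times the reported count or within the spike-in SD. No paired analysis was possible because the table pools the 3 libraries of each fraction into 1 value, so leaving out single replicates could not be run either.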
